A study of Mus musculus with 6 samples.

Results

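The 39 genes of the mouse Hox clusters are described here across 6 RNA-seq libraries of cultured lung alveolar organoid cells. Members were all rows of the expression table whose symbol was Hox, a cluster letter from a to d and a paralog number, with nothing after it, which gave 11 Hoxa, 10 Hoxb, 9 Hoxc and 9 Hoxd genes among 23224 genes. Each library was of polyA RNA from cells of the genotype Sftpc-eGFP, which carry green fluorescent protein under the name of the gene for surfactant protein C. Cells of the lines SN3593 and SN3595 were kept as matrigel drops (3D) in FNHCS medium and then spent 7 days in 1 of 3 conditions before dissociation with TrypLE. The conditions were flat culture with 10% FBS, or fetal bovine serum, in Ad-DMEM F/12 (2D FBS), flat culture in FNHCS medium (2D FNHCS) and continued drops in FNHCS medium (3D FNHCS), which the labels call the control. The sample names mark these groups as typI, AT2_AT1 and typII. The series text speaks of eGFP+/- cells, and no source used here says whether cells were sorted on eGFP before RNA extraction. Each condition held 1 library of each line, so n = 2 throughout. No label ties the lines to separate animals, and p-values measure the spread between these cultures, part of which may be technical.

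Hox genes encode homeodomain transcription factors that give cells their position along the body axis. In the mouse they stand in 4 clusters (Hoxa to Hoxd, on chromosomes 6, 11, 15 and 2), and genes with the same paralog number are copies of 1 ancestral gene. During development the genes at the low-numbered end of a cluster are used further forward in the body and are turned on earlier, under the influence of retinoic acid, and Polycomb proteins keep unused clusters shut. In the developing lung, Hox expression, of which Hoxa5 and Hoxb5 are the best known members, lies mostly in the mesenchyme.

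The cells showed alveolar epithelial genes at high levels. Levels are given as CPM, the count scaled to a common library size, with library totals corrected by TMM for the weight of a few very abundant genes. The 8 listed markers of type 2 cells, which make surfactant, summed to 541 and 369 CPM in the 2D FBS libraries of SN3593 and SN3595, to 53547 and 43431 CPM in 2D FNHCS and to 46582 and 63295 CPM in 3D FNHCS. Most of each sum was Sftpc, which averaged 351 CPM in 2D FBS, 46211 CPM in 2D FNHCS and 37258 CPM in 3D FNHCS. By edgeR 7 of the 8 were lower in 2D FNHCS than in 3D FNHCS at an adjusted p below 0.05, beside 9.77% of all genes. The list median was −2.67 on the log2 scale, Sftpc was not called, and some of the 7 calls were lost without single libraries. The 8 listed markers of type 1 cells, the thin gas-exchange cells, summed to 21004 and 19515 CPM in 2D FBS, to 4048 and 9747 CPM in 2D FNHCS and to 2057 and 1658 CPM in 3D FNHCS. Library totals were 33634368 to 43334665 expected counts, and a floor of 3 counts corresponded to 0.0704 to 0.0864 CPM.

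Almost no Hox RNA was counted in any condition. Over the 6 libraries the 39 genes together held 133 of 225813798 expected counts. Of 234 gene and library pairs, 171 (73.1%) were at 0, 57 held 1 to 3 counts and 6 held more. A total of 11 members had no count in any library, 9 had a single count, and 35 never exceeded 3 counts in a library. Over the 6 libraries 36 members (92.3%) had 10 or fewer counts, whereas 3734 of 18177 protein-coding genes (20.5%) were that low. The default edgeR filter on low counts kept 66.8% of protein-coding genes and none of the 39 Hox genes. Without the 2D FNHCS library of SN3593, which held the most Hox counts, 16 members were at 0 and 80 counts remained. At this depth a gene at 0 is below the floor of its library, which is not the same as being absent, and no library of a Hox-expressing tissue is among these samples to show what such a library would count.

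**Figure D1:**
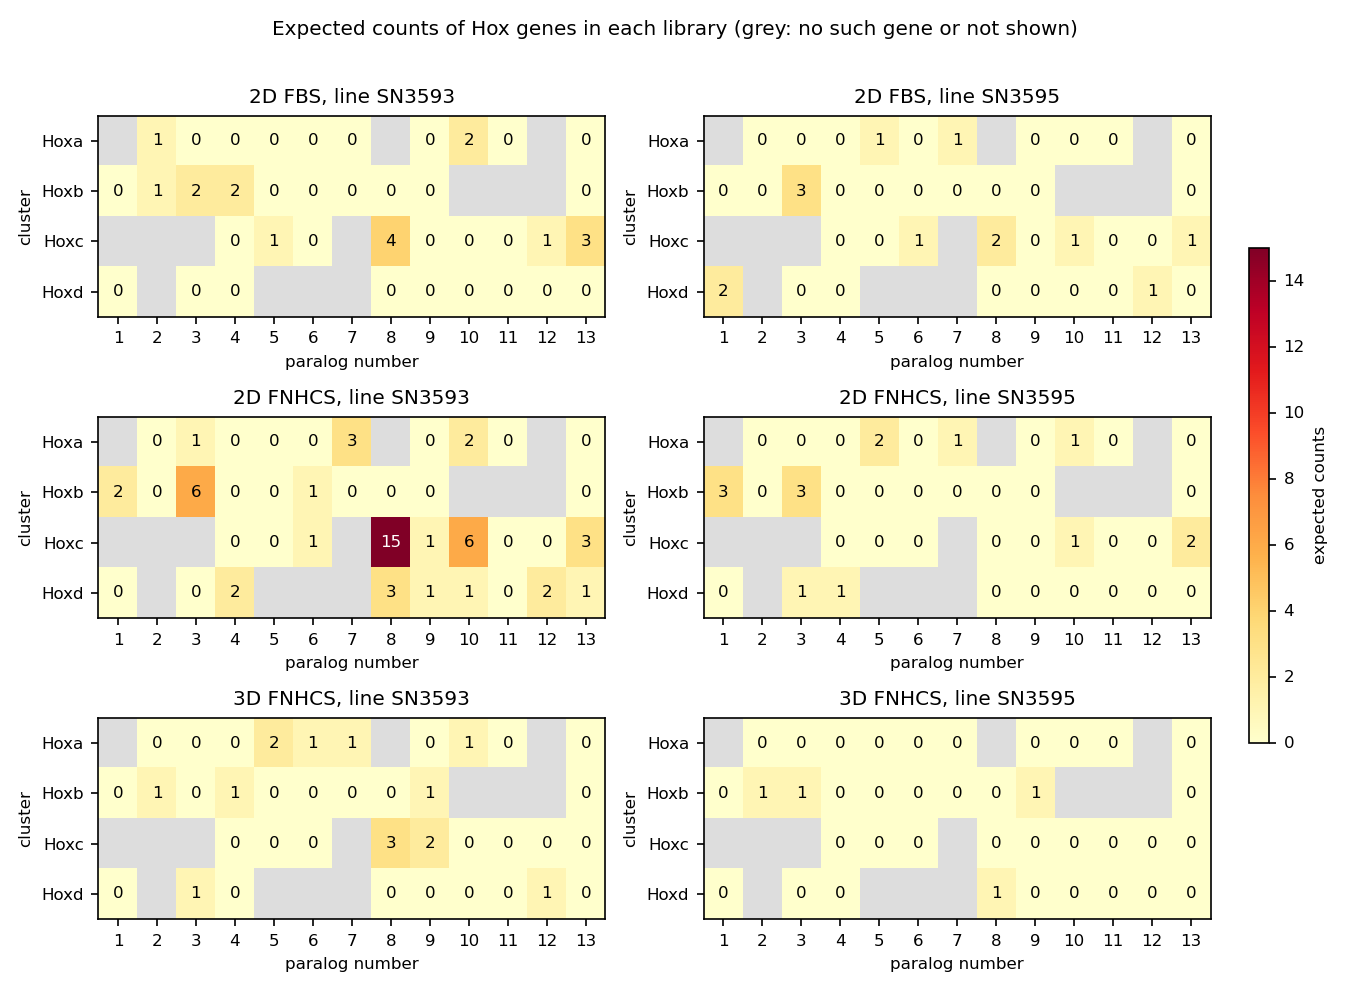
Expected counts of Hox genes, with the clusters as rows and the paralog number (1 to 13) as columns, in 1 panel per library; the conditions run from top to bottom and the lines stand side by side. The highest value shown is 15 counts of Hoxc8 in the 2D FNHCS library of SN3593.

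The genes at 0 in all 6 libraries came from every cluster. In Hoxa they were Hoxa4, Hoxa9, Hoxa11 and Hoxa13, of which Hoxa9 is known from blood progenitors, Hoxa11 from the kidney and the forearm, and Hoxa13 from digits and the hindgut. In Hoxb they were Hoxb5, Hoxb7, Hoxb8 and Hoxb13, and Hoxb13 is the prostate and hindgut member. In Hoxc they were Hoxc4 and Hoxc11, and in Hoxd the gene was Hoxd11, which acts with Hoxa11 in the forearm. By position, none of the 8 anterior genes (paralogs 1 to 3), 5 of the 15 central genes (paralogs 4 to 8) and 6 of the 16 posterior genes (paralogs 9 to 13) were at 0 throughout. Hoxb5, known in mice from lung branching, was thus not detected, and its floor in each library was 0.0704 to 0.0864 CPM. Hoxa5, needed in mice for the trachea and lung, had 0 and 1 count in 2D FBS, 0 and 2 counts in 2D FNHCS and 2 and 0 counts in 3D FNHCS. All 6 values of Hoxa5 were at or under the floor and the groups overlapped.

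The promoters of these genes are shown beside that of an active neighbour, since the contrast in output sits within a single stretch of chromosome. Sequences are from RefSeq (GRCm38.p6), run from 250 bases before to 50 bases after the annotated start, and have each CG dinucleotide, the site of DNA methylation in mammals, in capitals. Hoxd1 (chr2:74762730-74763029, plus strand) had 0 and 2 counts in 2D FBS and no count elsewhere. Mtx2 (chr2:74825562-74825861, plus strand), the next protein-coding gene beyond Hoxd1, encodes a mitochondrial import protein and had 2560 to 3516 counts in every library. Hoxa5 (chr6:52204538-52204837, minus strand) is the lung-associated member.
Hoxd1: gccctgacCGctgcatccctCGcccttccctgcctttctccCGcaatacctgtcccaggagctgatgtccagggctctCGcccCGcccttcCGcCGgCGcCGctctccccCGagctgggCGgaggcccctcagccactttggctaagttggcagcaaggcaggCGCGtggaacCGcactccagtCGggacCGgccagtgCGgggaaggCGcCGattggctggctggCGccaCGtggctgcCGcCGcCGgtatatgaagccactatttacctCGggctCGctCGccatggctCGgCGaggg
Mtx2: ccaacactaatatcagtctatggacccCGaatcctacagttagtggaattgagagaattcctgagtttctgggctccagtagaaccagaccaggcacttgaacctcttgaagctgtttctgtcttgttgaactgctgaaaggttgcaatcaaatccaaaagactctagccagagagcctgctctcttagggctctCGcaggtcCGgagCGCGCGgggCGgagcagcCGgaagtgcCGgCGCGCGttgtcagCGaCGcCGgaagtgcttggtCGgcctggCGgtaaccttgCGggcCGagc
Hoxa5: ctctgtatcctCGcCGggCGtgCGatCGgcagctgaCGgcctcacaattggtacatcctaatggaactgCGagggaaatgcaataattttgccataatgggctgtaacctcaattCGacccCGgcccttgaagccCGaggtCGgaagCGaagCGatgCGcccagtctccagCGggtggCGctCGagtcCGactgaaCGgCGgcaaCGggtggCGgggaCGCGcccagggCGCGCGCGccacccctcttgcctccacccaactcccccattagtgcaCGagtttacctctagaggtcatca

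The Hoxd1 and Hoxa5 windows each held 29 CG dinucleotides and the Mtx2 window held 19. The ratio of observed to expected CG, which allows for base composition, was 0.805 in Hoxd1, 0.801 in Mtx2 and 1.02 in Hoxa5. Promoters were matched for 22 of the 39 Hox genes, and 10 of those 22 (45.5%) had a ratio above 0.6, as did 20 of 22 matched neighbours of the clusters (90.9%) and 36.4% of all 27025 gene promoters. The 2 letters CG read the same on both strands, and 94.2% of all promoters held at least 1. CG-rich promoters thus stood on both sides of the border between counted and uncounted genes, which is a description of these windows only.

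With the filter removed, the 28 Hox genes with any count could be tested across the conditions. Of these, 25 had 10 or fewer counts over the 6 libraries, so a call was unlikely for them from the start. The shares of all genes called include many genes with far more counts. A lack of calls therefore does not show that the Hox genes were unchanged. None of the 28 was called at an adjusted p below 0.05 by edgeR's quasi-likelihood test, in a background of 25.4% of 21702 genes called for 2D FBS against 3D FNHCS, 11.6% for 2D FNHCS against 3D FNHCS and 7.17% for 2D FBS against 2D FNHCS. For 2D FBS against 3D FNHCS, 1 of the 28 had an unadjusted p below 0.05, and for each of the other comparisons of conditions that number was 0. With the line as a block, or with each library left out in turn, edgeR again called none. DESeq2 called 0 of the 28 in every comparison, with an unadjusted p below 0.05 for 1 of 28 in 2D FBS against 3D FNHCS and 0 in the other comparisons of conditions, and left 27 or 28 of the 28 without an adjusted p. The limma-voom test called 1 member for 2D FBS against 3D FNHCS, against a background of 24.8% called, and none in the other comparisons. By limma-voom the unadjusted p was below 0.05 for 2 of 28 in 2D FBS against 3D FNHCS, 4 in 2D FNHCS against 3D FNHCS and 3 in 2D FBS against 2D FNHCS, where it called 9.71% and 4.73% of all genes in the same order. The count of members called therefore depended on the test.

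**Figure D2:**
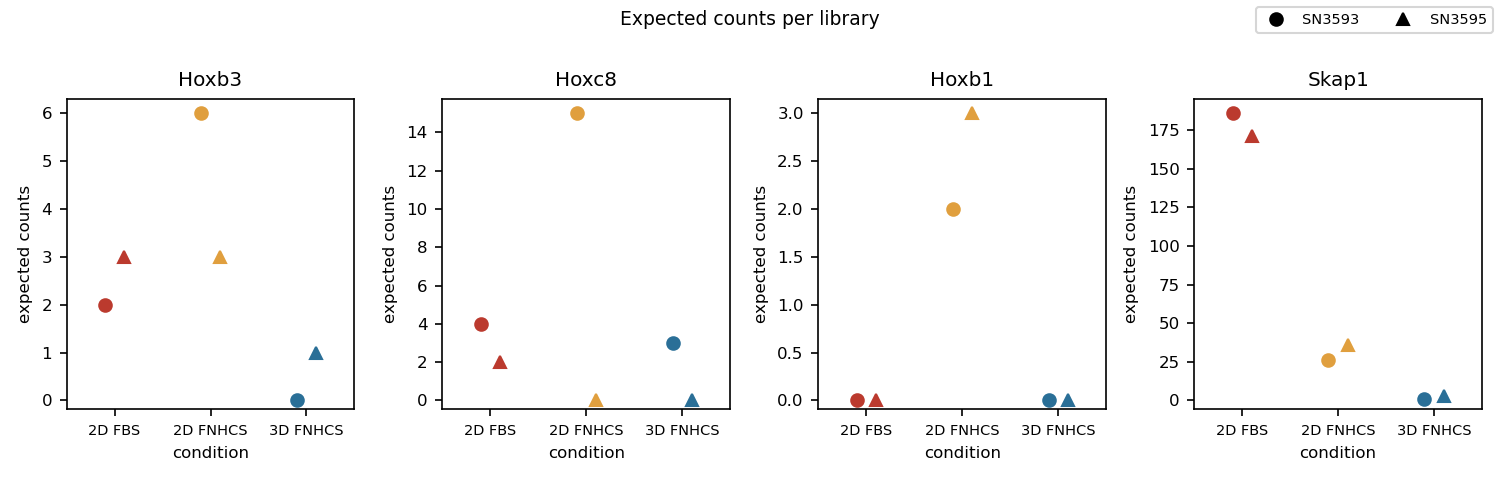
Expected counts (vertical axis, a separate scale in each panel) of Hoxb3, Hoxc8, Hoxb1 and the neighbouring gene Skap1 in the 3 conditions; circles are line SN3593 and triangles line SN3595. Hoxb3 is highest in 2D FNHCS at 6 and 3 counts, the 15 counts of Hoxc8 come from 1 library, and Skap1 reaches 186 and 171 counts in 2D FBS.

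The anterior genes had few counts, given here in the order SN3593 and SN3595. Hoxb3, which acts with Hoxa3 in the hindbrain and pharyngeal organs, had 2 and 3 counts in 2D FBS, 6 and 3 counts in 2D FNHCS and 0 and 1 count in 3D FNHCS. It was counted in 5 of the 6 libraries, more than any other member. The flat cultures did not overlap with the drops, but only the 6 counts in the 2D FNHCS library of SN3593 lay above the floor. Hoxb1, which specifies a single hindbrain segment, had 0 and 0 counts in 2D FBS, 2 and 3 counts in 2D FNHCS and 0 and 0 counts in 3D FNHCS. Its counts came only from 2D FNHCS, in both lines, and all lay at or under the floor. Hoxb2 had 1 and 0 counts in 2D FBS, 0 and 0 in 2D FNHCS, as against 1 and 1 in 3D FNHCS. Hoxd1, given above, had 2 counts in all and Hoxd3 also had 2. Hoxa2, which patterns the second pharyngeal arch, and Hoxa3, needed for the thymus and parathyroid, had 1 count each in the 6 libraries together.

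The central genes were led by Hoxc8. This gene, known for thoracic identity, had 4 and 2 counts in 2D FBS, 15 and 0 counts in 2D FNHCS and 3 and 0 counts in 3D FNHCS. Its 15 counts in the 2D FNHCS library of SN3593, or 0.388 CPM, were the highest value of any Hox gene, and the other library of that condition had none. The conditions overlapped, and within each condition SN3593 was above SN3595. Per kilobase of the longest annotated transcript, that value was 0.175 CPM, also the highest of any member. Hoxa7 had 0 and 1 count in 2D FBS, 3 and 1 counts in 2D FNHCS and 1 and 0 counts in 3D FNHCS, which overlapped. Hoxd8 had no count in 2D FBS, 3 and 0 counts in 2D FNHCS and 0 and 1 count in 3D FNHCS. Hoxd4 had 2 and 1 counts in 2D FNHCS and none elsewhere. Hoxb4, a gene known from blood stem cells, had 2 and 0 counts in 2D FBS, none in 2D FNHCS, as against 1 and 0 in 3D FNHCS. Hoxa6, Hoxb6 and Hoxc5 had 1 count each in total and Hoxc6 had 2.

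The posterior genes pattern the trunk behind the lung, the limbs and the genital tract. Hoxc13, a hair and nail gene, had 3 and 1 counts in 2D FBS, 3 and 2 counts in 2D FNHCS and 0 and 0 counts in 3D FNHCS. Hoxc13 was thus counted in all 4 flat cultures and in neither drop culture, with every value at or under the floor. Hoxc10 had 0 and 1 count in 2D FBS, 6 and 1 counts in 2D FNHCS and none in 3D FNHCS. Hoxa10, needed in the uterus, had 2 and 0 counts in 2D FBS, 2 and 1 counts in 2D FNHCS and 1 and 0 counts in 3D FNHCS. Hoxd12 had 4 counts in total, Hoxc9 had 3 and Hoxb9 had 1.99, the last only in 3D FNHCS. Hoxc12, Hoxd9, Hoxd10 and Hoxd13 had 1 count each. Reads of Hoxc4, Hoxc5 and Hoxc6, whose transcripts share exons, cannot be assigned with certainty. Nor can reads of genes overlapped by antisense RNAs, since no source used here gives the strand setting of the counting.

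By cluster, totals over the 6 libraries were 38 counts for Hoxa, 29 for Hoxb, 48 for Hoxc and 18 for Hoxd. Per kilobase of transcript these totals were 1.62 for Hoxa, 1.19 for Hoxb, 2.57 for Hoxc and 0.805 for Hoxd. The library of SN3593 in 2D FNHCS supplied 26 of the 48 Hoxc counts. Hoxa and Hoxc were both at 0 in the 3D FNHCS library of SN3595, and Hoxd was at 0 in the 2D FBS library of SN3593. By position, anterior genes held 47 counts or 2.37 per kilobase, central genes 50 or 1.58 and posterior genes 36 or 0.963. Anterior genes had 15 and 9 counts in 2D FBS, 11 and 8 counts in 2D FNHCS and 2 and 2 counts in 3D FNHCS, so the flat cultures did not overlap with the drops. Hoxb3 gave 15 of the 47 anterior counts. Central genes had 7 and 5 counts in 2D FBS, 25 and 4 in 2D FNHCS, as against 8 and 1 in 3D FNHCS, which overlapped. Posterior genes had 6 and 3 counts in 2D FBS, 17 and 4 in 2D FNHCS, as against 4.99 and 1 in 3D FNHCS, which also overlapped.

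Summed over the 39 members, Hox counts were 28 and 17 in 2D FBS, 53 and 16 in 2D FNHCS, as against 15 and 4 in 3D FNHCS. As summed levels these were 0.618 ± 0.265 CPM in 2D FBS, 0.873 ± 0.704 CPM in 2D FNHCS and 0.273 ± 0.226 CPM in 3D FNHCS (SD, n = 2 each). Across the lines the conditions overlapped: the SN3595 libraries of 2D FBS, at 0.43 CPM (exact 95% counting interval 0.251 to 0.689), and of 2D FNHCS, at 0.375 CPM (0.215 to 0.61), lay just below the 3D FNHCS library of SN3593, at 0.432 CPM (0.242 to 0.712). Within each line both flat conditions lay above the drops. The sums of SN3593 were 0.805 CPM in 2D FBS, 1.37 CPM in 2D FNHCS and 0.432 CPM in 3D FNHCS, and those of SN3595 were 0.43, 0.375 and 0.113 CPM in the same conditions. With 2 pairs, this order was not tested. The highest sum was 1.37 CPM (1.03 to 1.79) in the 2D FNHCS library of SN3593 and the lowest was 0.113 CPM (0.0309 to 0.29) in the 3D FNHCS library of SN3595. These intervals cover counting error only. In bulk RNA, fewer cells with a transcript and less of it per cell cannot be told apart.

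The same libraries differed in how many other rare transcripts they held. Among 8769 other genes that failed the filter, the share with any count was 50.4% and 45.4% in 2D FBS, 65.2% and 50.7% in 2D FNHCS, as against 50.1% and 42.2% in 3D FNHCS. The 2D FNHCS library of SN3593 was the highest and the 3D FNHCS library of SN3595 the lowest in this share as well as in the Hox sum. The summed level of these other rare genes was 446 and 294 CPM in 2D FBS, 676 and 317 CPM in 2D FNHCS, as against 392 and 312 CPM in 3D FNHCS. Summed Hox counts equalled 0.0363% (3D FNHCS, SN3595) to 0.203% (2D FNHCS, SN3593) of the summed counts of these other genes. The part that this general difference plays in the Hox sums was not tested.

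**Figure D3:**
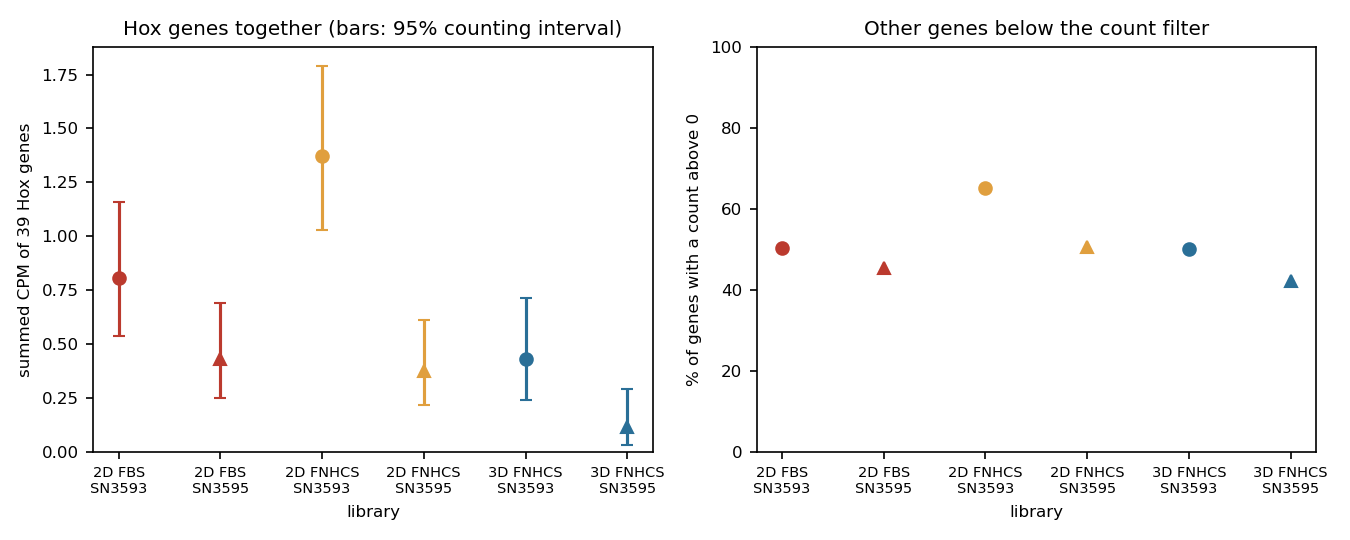
Left, the summed CPM of the 39 Hox genes in each library with exact 95% counting intervals; right, the share of 8769 other genes below the count filter that had any count in the same library. The 2D FNHCS library of SN3593 is highest in both, at 1.37 CPM and 65.2%.

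Markers of cell types that use Hox genes in the body were measured beside them. The 12 listed fibroblast markers summed to 1.01 and 1.52 CPM in 2D FBS, 1.63 and 1.41 CPM in 2D FNHCS, as against 0.778 and 0.851 CPM in 3D FNHCS, and 2 of the 12 passed the filter. Of the defining fibroblast factors, Twist2 was at 0 in every library and Twist1 and Tcf21 never exceeded 1 count. Some other listed markers held more counts. Col1a1, which passed, averaged 0.236 CPM in 2D FBS, 0.528 CPM in 2D FNHCS but 0.214 CPM in 3D FNHCS. Means of Dcn, which also passed, were 0.229, 0.347 and 0.0855 CPM in the same order. By edgeR neither was called between conditions. Col1a2 had 8 and 41 counts in 2D FBS and at most 7 elsewhere. Fbln1 had none in 2D FBS but 9 and 10 counts in 3D FNHCS. The 6 mesothelial markers summed to 561 and 2144 CPM in 2D FBS, 7.15 and 307 CPM in 2D FNHCS, as against 4.98 and 12.3 CPM in 3D FNHCS, almost all of it from Msln. The mesothelial factor Wt1 had 7 and 0 counts in 2D FBS, 1 and 0 counts in 2D FNHCS and none in 3D FNHCS. The 9 gastrointestinal markers with a row summed to 0.517 and 0.861 CPM in 2D FBS, 1.06 and 0.634 CPM in 2D FNHCS, as against 4.92 and 4.74 CPM in 3D FNHCS, led by Lgals4 with 7 and 15.5 counts in 2D FBS, 30 and 10.3 counts in 2D FNHCS and 146 and 122 counts in 3D FNHCS. Cdx2, a defining hindgut factor, was at 0 in all 6. The 8 endothelial markers summed to 1.87 and 1.39 CPM in 2D FBS, against 1.14 and 1.38 CPM in 2D FNHCS. Their 3D FNHCS sums were 0.576 and 0.567 CPM. Vwf alone of the 8 passed the filter and made up most of the 2D FBS sums. Its mean was 1.38 CPM there, 0.76 CPM in 2D FNHCS but 0.171 CPM in 3D FNHCS. By edgeR Vwf was called higher in 2D FBS against 3D FNHCS (log2 fold change 2.98), beside 19.9% of all genes. Pecam1 was instead highest in 3D FNHCS, at 3 and 8 counts, while Cldn5 was at 0 throughout. The 8 leukocyte markers summed to 6.72 and 10.3 CPM in 2D FBS, against 6.76 and 4.27 CPM in 2D FNHCS. Their 3D FNHCS sums were 21.2 and 20.5 CPM, led by Cd68. Csf1r, also listed, averaged 5.16 CPM in 2D FBS, 1.42 CPM in 2D FNHCS but 0.0432 CPM in 3D FNHCS. The 8 airway markers summed to 4.25 and 10.9 CPM in 2D FBS, 7.04 and 48.6 CPM in 2D FNHCS, as against 34.1 and 38.8 CPM in 3D FNHCS. The 9 general lung epithelial markers summed to 24329 and 18619 CPM in 2D FBS, 8662 and 8877 CPM in 2D FNHCS, as against 5253 and 3923 CPM in 3D FNHCS. The part of such cells in the Hox counts was not tested.

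The lines differed in their Hox counts in the same direction in every condition. SN3593 held 96 counts over 27 members and SN3595 held 37 counts over 17 members, although the SN3595 libraries were the deeper ones in each condition. A total of 11 members were counted only in SN3593 and 1 only in SN3595. Without the 2D FNHCS libraries the sums were 43 counts in SN3593 and 21 in SN3595, and without Hoxc8 they were 74 and 35 counts in the same order. Hoxc8 alone had 22 counts in SN3593 and 2 in SN3595. Its log2 fold change for SN3593 against SN3595 was 3.23 ± 1.28 (SE), with an unadjusted edgeR p of 0.0396 and an adjusted p of 0.324, the only member of the 28 with an unadjusted p below 0.05. No member was called between the lines by edgeR, DESeq2 or limma-voom (unadjusted p below 0.05 for 1, 0 and 2 of 28), where edgeR called 0.336% and limma-voom 0.00461% of all 21702 genes, and edgeR with its filter called 0.00694%. The same libraries of SN3593 also had the higher share of other rare transcripts within each condition.

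Non-coding genes inside the clusters were as low as the coding ones. The table held rows for 5 long non-coding RNAs there, of which 3 had counts, 7 in total and never more than 2 in a library. Hoxaas3 had 1 and 1 count in 2D FBS, none in 2D FNHCS and 0 and 1 count in 3D FNHCS. Hoxa11os had none in 2D FBS, 1 and 0 counts in 2D FNHCS and 1 and 0 counts in 3D FNHCS, and Hoxd3os1 had 2 counts in the 3D FNHCS library of SN3593. The 6 microRNA rows, among them Mir10a, Mir10b and Mir196b, were at 0, but libraries from polyA RNA do not measure mature microRNAs.

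Most genes near the clusters were counted at far higher levels than the Hox genes. Of the 24 nearest protein-coding neighbours, 3 on each side of each cluster in the RefSeq order of GRCm38.p6, 20 passed the filter, and 19 had a lowest library above 0.175 CPM per kilobase, the highest value of any Hox gene. Those below were Evx1 and Evx2, homeobox genes beside Hoxa13 and Hoxd13, Ttll6 and Calcoco2 beyond Hoxb13, and Skap1 beside Hoxb1. Evx1 had 2 counts in 1 library, Evx2 had none and Ttll6 had 1. Of the 8 direct neighbours of the clusters, 5 passed the filter and 4 stayed above 0.175 CPM per kilobase in every library. On the other side of Hoxd1, Mtx2 stood at 25.0 CPM per kilobase or more, and on the anterior side of the Hoxa cluster, Skap2, an adaptor of immune cell signalling, stood at 5.75 to 10.9 CPM per kilobase. Beside the Hoxc cluster, Smug1, a DNA repair glycosylase, stood at 6.67 to 9.48 CPM per kilobase and Calcoco1 at 9.05 to 33.3 CPM per kilobase.

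**Figure D4:**
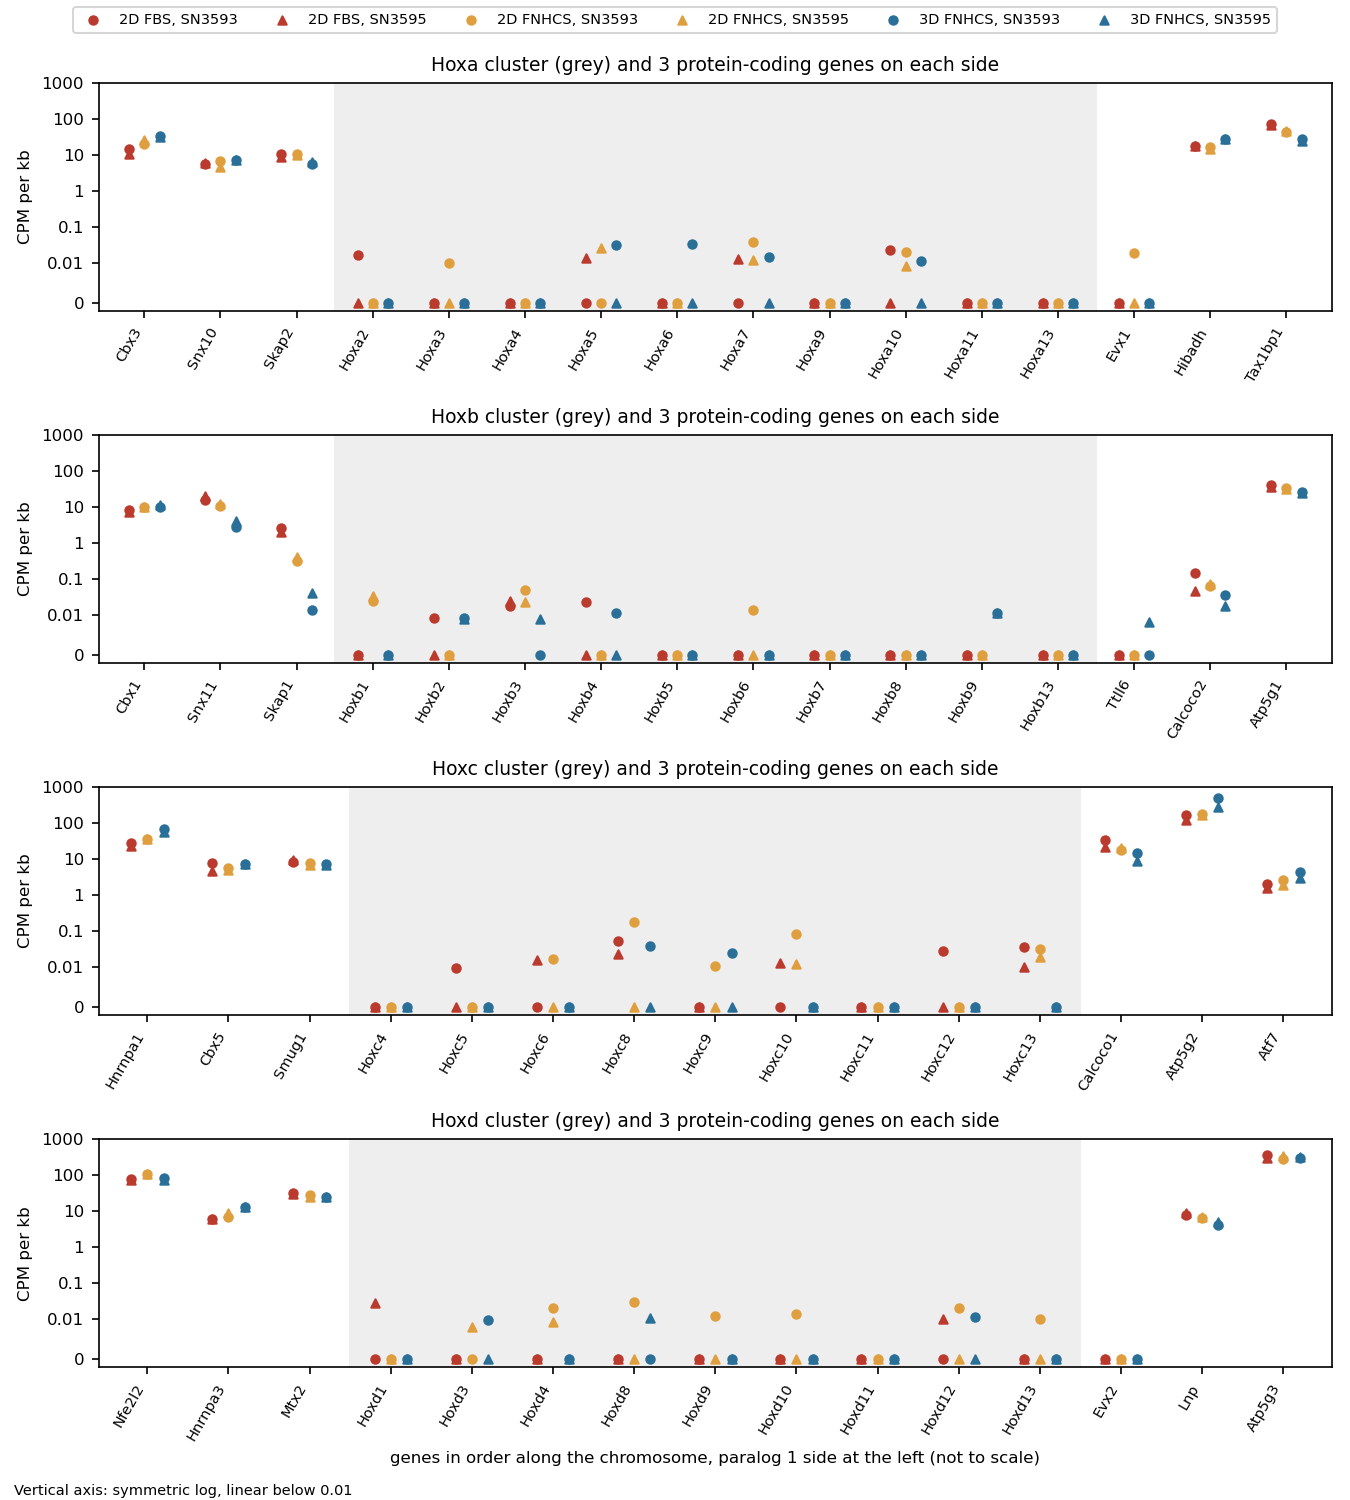
CPM per kilobase of transcript (symmetric log axis, linear below 0.01) for Hox genes, on grey, and the 3 nearest protein-coding genes on each side, in chromosomal order with the paralog 1 side at the left; colours are conditions, circles SN3593 and triangles SN3595. The Hox genes lie at or below 0.175 CPM per kilobase, while 19 of the 24 neighbours stay above that value in all libraries.

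Skap1, the direct neighbour of Hoxb1 and a T-cell adaptor gene, rose in both flat conditions against 3D FNHCS, while no Hoxb gene passed the filter or was called without it. It had 186 and 171 counts in 2D FBS, 26.1 and 36.1 counts in 2D FNHCS and 1 and 3 counts in 3D FNHCS, with no overlap. The pooled counts gave a ratio of 84.1 for 2D FBS against 3D FNHCS (exact 95% counting interval 32.6 to 310.3) and of 13.4 for 2D FNHCS against 3D FNHCS (4.96 to 50.5). By edgeR the log2 fold change of Skap1 was 6.32 ± 0.605 (SE, adjusted p = 0.00144) for 2D FBS against 3D FNHCS, 3.66 ± 0.594 (adjusted p = 0.0139) for 2D FNHCS against 3D FNHCS and 2.67 ± 0.464 (adjusted p = 0.0242) for 2D FBS against 2D FNHCS. Of these calls, that for 2D FNHCS against 3D FNHCS was lost without the 3D FNHCS library of SN3593 (edgeR adjusted p = 0.0731), and the call for 2D FBS against 2D FNHCS was lost without any 1 of the 4 flat libraries (adjusted p up to 0.13). Snx11, a sorting nexin next to Skap1, also rose in 2D FBS against 3D FNHCS, by 2.33 ± 0.251 (SE, edgeR adjusted p = 0.00175). Across the cluster, the 10 Hoxb genes held 5 and 3 counts in 2D FBS, 9 and 6 counts in 2D FNHCS and 2.99 and 3 counts in 3D FNHCS. Of the 20 neighbours tested, 7 rose and 6 fell in 2D FBS against 3D FNHCS, against 40.5% of all 14416 genes called, and their median log2 fold change was 0.06 against −0.03 over all genes. The 13 calls became 8 without either 2D FBS library and 7 without the SN3593 library of 3D FNHCS. The shares of all genes called in each direction under the default filter were 19.9% higher and 20.5% lower in 2D FBS against 3D FNHCS, 8.63% and 9.77% in 2D FNHCS against 3D FNHCS, and 5.85% and 4.77% in 2D FBS against 2D FNHCS. In 2D FNHCS against 3D FNHCS 4 rose and 3 fell, beside 18.4% of all genes called, and 10 neighbours were called with the line as a block. Over all genes the block raised the calls from 2652 to 4181 in this comparison. In 2D FBS against 2D FNHCS it raised them from 1531 to 2700. Those 7 calls became 0 without the SN3593 library of 3D FNHCS and 2 to 4 without any other single library. In 2D FBS against 2D FNHCS 1 rose and 1 fell (10.6% of all genes called, and 4 neighbours called with the line as a block), which became 0 without any of the 4 flat libraries and 1 without either 3D FNHCS library.

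Of 9 listed genes of proteins that bind DNA together with Hox factors, 8 passed the filter and were counted in every condition. The other, Meis1, had 2 and 3 counts in 2D FBS, 7.27 and 2 counts in 2D FNHCS and none in 3D FNHCS. Of 8 Pbx, Meis and Pknox genes tested, 2 rose (Meis3 and Pbx4) and 2 fell (Pknox2 among them) in 2D FBS against 3D FNHCS, with a list median of −0.21 on the log2 scale against −0.03 for all genes and beside 40.5% of all genes called. Without either 2D FBS library or the SN3595 library of 3D FNHCS, 2 of the 8 were called. Meis3 had 393 and 333 counts in 2D FBS, 134 and 108 in 2D FNHCS, as against 39 and 44 in 3D FNHCS, with no overlap. Its log2 fold change was 3.05 ± 0.348 (SE, edgeR adjusted p = 0.00202) for 2D FBS against 3D FNHCS. Pbx4 rose by 1.67 ± 0.356 (SE, edgeR adjusted p = 0.0131) in the same comparison, a call lost without either 2D FBS library or the SN3595 library of 3D FNHCS (adjusted p up to 0.0774). Pknox2 had 2 and 3 counts in 2D FBS, 16 and 9 counts in 2D FNHCS and 23 and 17 counts in 3D FNHCS, and its call (−3.03 ± 0.712 SE, edgeR adjusted p = 0.0179) was lost without any of the 4 libraries compared (up to 0.111). In 2D FNHCS against 3D FNHCS 1 of the 8 was called, beside 18.4% of all genes (Meis3, 1.34 ± 0.334 SE, edgeR adjusted p = 0.0414), and leaving out any of the 6 libraries ended that call (adjusted p 0.0703 to 0.184). In 2D FBS against 2D FNHCS 1 rose (Meis3) and 1 fell, beside 10.6% of all genes called, and the Meis3 call ended without any of the 4 flat libraries (edgeR adjusted p up to 0.155).

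Polycomb genes, whose products keep unused Hox clusters shut, were counted in every condition, and some fell in flat culture. All 23 listed genes passed the filter, and 10 fell and none rose in 2D FBS against 3D FNHCS, with a list median of −0.53 on the log2 scale against −0.03 for all genes. Of all genes, 20.5% were called lower and 19.9% higher in this comparison. With the line as a block, which raised calls over all genes from 5836 to 7112, 13 fell and 1 (Bmi1) rose. The number called was 5 without the 2D FBS library of SN3595 and 4 without the SN3593 library of 3D FNHCS. Cbx2, a subunit of Polycomb complex 1, had 43.1 and 46 counts in 2D FBS, 246 and 337 in 2D FNHCS, as against 348 and 456 in 3D FNHCS. It fell by 3.25 ± 0.301 on the log2 scale (SE, edgeR adjusted p = 0.00134) in 2D FBS against 3D FNHCS. Suz12, a core subunit of the methyltransferase complex 2, fell by 1.27 ± 0.177 (SE, edgeR adjusted p = 0.00339) in that comparison. Bmi1, which also belongs to complex 1, averaged 68.4 ± 23.2 CPM in 2D FBS, 65.1 ± 10.9 CPM in 2D FNHCS and 47.0 ± 17.9 CPM in 3D FNHCS (SD, n = 2 each). Its edgeR adjusted p for 2D FBS against 3D FNHCS was 0.257, and 0.0378 with the line as a block. In 2D FNHCS against 3D FNHCS 4 of the 23 fell (Cbx7, Suz12 and Ring1 among them), beside 9.77% of all genes called lower. With the line as a block 8 fell, and calls over all genes rose from 2652 to 4181. Each of these named calls was lost when single libraries were left out. That of Cbx7 was lost without the 2D FNHCS library of SN3595 or the 3D FNHCS library of SN3593. Those of Suz12 and Ring1 were lost without any of the 6. In 2D FBS against 2D FNHCS Cbx2 alone fell, beside 4.77% of all genes called lower, a call lost without either 2D FBS library. With the line as a block 3 Polycomb genes fell, and calls over all genes rose from 1531 to 2700.

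Of the 14 opposing Trithorax genes and demethylases, 4 fell and none rose in 2D FBS against 3D FNHCS, with a list median of −0.30 on the log2 scale against −0.03 for all genes, and 20.5% of all genes called lower. With the line as a block, which raised calls over all genes from 5836 to 7112, 6 fell. Without the 2D FBS library of SN3595 or either 3D FNHCS library, 2 were called. Mllt3, a transcription elongation factor subunit, fell by 2.10 ± 0.206 (SE, edgeR adjusted p = 0.0015), and Kdm6b, which removes the Polycomb mark, fell by 1.80 ± 0.213 (SE, edgeR adjusted p = 0.00222). Wbp7, an older symbol of the methyltransferase gene Kmt2b, fell by 1.66 ± 0.351 (SE, edgeR adjusted p = 0.0127), a call lost without any of the 4 libraries compared (adjusted p up to 0.0706). In 2D FNHCS against 3D FNHCS Kdm6b and Mllt3 fell, beside 9.77% of all genes called lower. With the line as a block 4 listed genes were called, 1 of them higher, and calls over all genes rose from 2652 to 4181. The Kdm6b call was lost without any of the 4 libraries compared and that of Mllt3 without any of the 6. In 2D FBS against 2D FNHCS Mllt3 alone fell, beside 4.77% of all genes called lower. That call was lost without either 2D FBS library or the 2D FNHCS library of SN3593. With the line as a block 2 listed genes fell, and calls over all genes rose from 1531 to 2700.

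Genes of retinoic acid supply changed in both directions. Of 11 of the 19 listed genes that passed the filter, 3 rose (Aldh1a1, Rdh10 and Rarb) and 4 fell in 2D FBS against 3D FNHCS, with a list median of −0.72 on the log2 scale, beside 19.9% of all genes called higher and 20.5% lower. Without either 2D FBS library or the SN3593 library of 3D FNHCS, 3 of the 11 were called. Aldh1a1, which makes retinoic acid from retinal, had 17587 and 10347 counts in 2D FBS, 357 and 1344 in 2D FNHCS, as against 281 and 326 in 3D FNHCS. Its log2 fold change was 5.47 ± 0.698 (SE, edgeR adjusted p = 0.00268) for 2D FBS against 3D FNHCS and 4.23 ± 0.656 (SE, edgeR adjusted p = 0.0191) for 2D FBS against 2D FNHCS, the call for 2D FBS against 2D FNHCS being lost without the 2D FBS library of SN3593 (adjusted p = 0.0757). Rdh10, which makes retinal from retinol, rose by 3.30 ± 0.409 (SE, edgeR adjusted p = 0.00249) in 2D FBS and by 2.76 ± 0.400 (SE, edgeR adjusted p = 0.0103) in 2D FNHCS, both against 3D FNHCS. Rbp4, a retinol carrier, had 107 and 107 counts in 2D FBS, 966 and 480.1 in 2D FNHCS, as against 2023 and 3655 in 3D FNHCS, and fell by 4.81 ± 0.504 (SE, edgeR adjusted p = 0.00165) in 2D FBS against 3D FNHCS. In 2D FNHCS against 3D FNHCS Rbp4 and Dhrs3 fell beside the rise of Rdh10, where 9.77% of all genes were called lower and 8.63% higher. With the line as a block 5 listed genes were called, and calls over all genes rose from 2652 to 4181. The Rbp4 call was lost without the SN3595 library of either condition. That of Dhrs3 was lost without any library other than the 2D FNHCS library of SN3595. Rarb, a receptor gene and known target of retinoic acid, had 96 and 71 counts in 2D FBS, 40 and 233 in 2D FNHCS, as against 15 and 8 in 3D FNHCS; its call (2.78 ± 0.881 SE, edgeR adjusted p = 0.0474) was lost with the line as a block (0.0552) or without any of the 4 libraries compared (up to 0.192). The degrading enzymes Cyp26a1, Cyp26b1 and Cyp26c1 did not pass the filter.

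**Figure D5:**
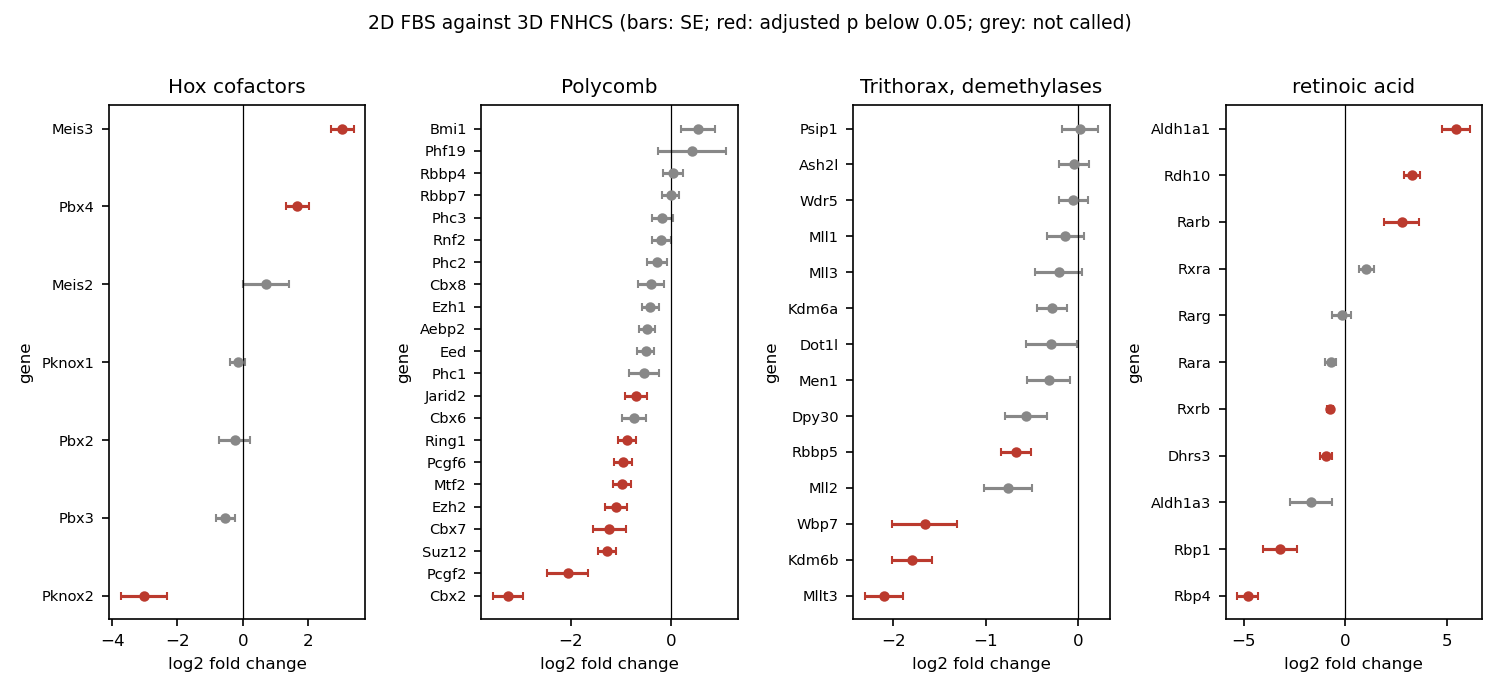
Log2 fold changes for 2D FBS against 3D FNHCS of the tested Hox cofactor, Polycomb, Trithorax and demethylase, and retinoic acid genes; points are edgeR estimates, bars are SE, and red marks an adjusted p below 0.05. The Polycomb genes in red all lie below 0, while cofactors and retinoic acid genes are red on both sides.

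Some homeobox genes outside the clusters were counted at high levels in the same libraries. Of 8 listed caudal, ParaHox and Evx genes, none passed the filter and none had more than 2 counts in a library. They include Cdx2, Pdx1 and the cluster neighbours Evx1 and Evx2 given above. Of 49 genes of other homeobox families, among them Nkx and Irx, chosen after the Hox counts had been seen, 14 passed the filter. Most of the 49 were low as well: 32 had 10 or fewer counts over the 6 libraries, as did 36 of the 39 Hox genes. Nkx2-1, the homeobox factor of lung epithelium, averaged 82.1 ± 1.81 CPM in 2D FBS, 125 ± 58.5 CPM in 2D FNHCS and 163 ± 44.2 CPM in 3D FNHCS (SD, n = 2 each). Irx3 and Irx5 averaged 28.2 ± 10.9 and 24.1 ± 4.72 CPM in 2D FBS, 168 ± 22.8 and 131 ± 1.24 CPM in 2D FNHCS and 261 ± 11.9 and 185 ± 1.40 CPM in 3D FNHCS. In 2D FBS against 3D FNHCS Irx3 fell by 3.21 ± 0.313 (SE, edgeR adjusted p = 0.0015) and Irx5 by 2.94 ± 0.203 (SE, edgeR adjusted p = 0.000766). No Hox gene reached 1 CPM in any library.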

How the data were processed

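The data were 6 RNA-seq libraries of polyA RNA, purified with RNeasy and prepared with NEB Ultra II, per the labels' protocols. The authors deposited expected counts per gene, made with RSEM 1.3.1 on Bowtie 1.2.3 and mm9, per the submitters' processing notes. No source used here gives the annotation, options or strand setting. Expected counts were rounded and tested with edgeR 4.0.16 in R 4.3.3: TMM scaling, default filter by group (14416 of 23224 genes kept), a quasi-likelihood test with a term for each condition on all 6 libraries, and Benjamini-Hochberg adjustment over all genes, called below 0.05. Lines were compared with condition and line as terms. The SE of each edgeR log2 fold change was derived as its absolute value divided by the square root of the quasi-likelihood F statistic. No Hox gene passed the filter, so member tests come from the planned fit without it; its combination with DESeq2 1.42.0, limma 3.58.1, the block or a left-out library was chosen after seeing this. Same-numbered libraries share a cell line and deviated together (correlations of 0.422, 0.245 and 0.379), so the line pairs the libraries. Replicates of a condition differed by far more than sampling noise (chi-square of 105 to 129 per degree of freedom). Results for some genes are not reported here. The members and lists were chosen with earlier results of these data known. Text names the Hox genes and, of other lists, at most 3 called genes per comparison with the lowest adjusted p, the nearest neighbours of each cluster and, with values, other list members. Snx11, Ring1, Pknox2, Bmi1, Rarb, Irx3, Irx5, Sftpc, Vwf, Csf1r, Col1a1, Col1a2, Dcn, Fbln1 and Meis1 were added after their values were seen. Transcript lengths came from GENCODE M21 and gene order from RefSeq GRCm38.p6, another build than mm9, so coordinates are given only for RefSeq promoters. Data simulated with a known change of 4-fold in 100 genes were recovered at 92% for 2D FBS against 3D FNHCS, 91% for 2D FNHCS against 3D FNHCS and 94% for 2D FBS against 2D FNHCS, and 2-fold changes at 19%, 24% and 25%. The simulated means came only from genes that passed the filter, with a fixed dispersion of 0.05 and no effect of line. These rates therefore do not apply to the Hox genes, none of which passed, and say little about spread as large as that seen here.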

Additional observations from a re-analysis of the deposited data

Results flagged for a closer look

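Hoxc8 moved in opposite directions in the lines between 2D FBS and 2D FNHCS. On the scale of log2(CPM + 0.1) the difference was −1.18 in SN3593 and 0.59 in SN3595, from 4 against 15 counts and 2 against 0 counts. The neighbour gene Skap2 also differed in sign between 2D FBS and 2D FNHCS, by 0.03 in SN3593 and −0.24 in SN3595. Each line had 1 library per condition, so neither difference between the lines was tested.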

How the results depend on the processing

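With the filter no Hox gene was tested, so a count of 0 called there says nothing about stability. Without it 28 Hox genes were tested: edgeR called 0 in each comparison, also with the line as a block, DESeq2 gave an adjusted p for at most 1 of them, and limma-voom called 1 for 2D FBS against 3D FNHCS; the cause was not tested. Without single libraries edgeR called 0. In 3 cases, single-gene fold changes of neighbours that were not called turned direction: Smug1 in 2D FNHCS against 3D FNHCS to −0.05 without the 2D FNHCS library of SN3593 (0.16 without that of SN3595), Skap2 in 2D FBS against 2D FNHCS to 0.09 without the 2D FBS library of SN3595 (−0.25 without that of SN3593), and Mtx2 in 2D FBS against 2D FNHCS to −0.07 when library totals alone set the scale. That scale moved the median of all genes from 0.03 to 0.19 (log2) in 2D FNHCS against 3D FNHCS, from −0.06 to −0.33 in 2D FBS against 2D FNHCS and to −0.14, against −0.03, in 2D FBS against 3D FNHCS, and changed the share of calls that were higher from 46.9% to 62.4% and from 55.1% to 29.8% in the first and second of these. Upper-quartile factors made it 43.4%, against 55.1%, in 2D FBS against 2D FNHCS. Under library totals, 1 Trithorax-list gene was higher and 1 lower in 2D FNHCS against 3D FNHCS, and the retinoic acid median was 0.03. Genes called for 2D FNHCS against 3D FNHCS numbered 2652, against 4210 by DESeq2, 4181 with the line as a replicate block and 628 to 1805 without single libraries; for 2D FBS against 2D FNHCS they numbered 1531, against 3147, 2700 and 91 to 1234; for 2D FBS against 3D FNHCS 5836, against 6769, 7112 and 3187 to 5976. The Polycomb list without single libraries had 4 to 10 calls in 2D FBS against 3D FNHCS and 0 to 2 in 2D FNHCS against 3D FNHCS. Depth limits all of this: 1 count is under the floor in every library.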
